A study of Mus musculus with 13 samples.

Results

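Kinesins and dyneins are the motors that carry cargo along microtubules. The genes described here are the 59 protein-coding genes of the GENCODE vM1 annotation of the mouse genome build mm9 whose symbols name a kinesin heavy chain (Kif followed by a digit), a kinesin light chain (Klc), a cytoplasmic dynein chain (Dync) or a dynein light chain (Dynl). They were chosen by symbol from 22367 protein-coding genes on chromosomes 1 to 19, X and Y, without use of any measured value. They comprised 38 Kif genes, 4 Klc genes and 17 dynein genes. Because the list was made by symbol, it held copies that are hard to tell apart by short reads (Dynlt1a, Dynlt1b, Dynlt1c, Dynlt1e and Dynlt1f) and Kif4-ps, which the annotation calls protein-coding although its symbol marks a pseudogene.

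R-loops, in which RNA pairs with 1 strand of the DNA and leaves the other strand single, were mapped by DRIP-seq in N2a cells, a mouse neuroblastoma line recorded as wild type. The S9.6 antibody, which binds RNA-DNA hybrids, was used on genomic DNA that 5 restriction enzymes (XbaI, SspI, HindIII, EcoRI and BsrGI) had cut into fragments. The cells of all groups had been transfected with siRNA: a scramble siRNA (siScramble, the control), an siRNA against DDX1, a DEAD-box RNA helicase (siDDX1), or an siRNA against EXOSC3, a subunit of the RNA exosome (siEXOSC3). Each group had 3 libraries of DNA that was not digested with RNase H, called untreated here as in the labels, and 1 library of DNA digested with RNase H, the enzyme that removes the RNA of a hybrid, so 12 peak lists were read. The effect of losing DDX1 or EXOSC3 on R-loops was the question of the study.

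The names inside the lists go against the sample titles, and this bears on every direction below. In 12 of 12 lists the peaks carry the name of another group: the siScramble titles go with siDDX1 peak names, the siDDX1 titles with siEXOSC3 peak names, and the siEXOSC3 titles with siScramble peak names. Groups are called here by their titles, as the libraries labelled siScramble, siDDX1 and siEXOSC3. Which of the names is right cannot be told from the lists. The comparison of the 3 groups as a whole and that of RNase H with untreated libraries do not change if all names rotate, but every statement that 1 group was higher or lower does.

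In a cell, most kinesins walk toward the plus end of microtubules and dynein toward the minus end, and both are used at length in neurons, where cargo travels along axons. Other kinesins build the spindle and divide the cell. R-loops form mainly where a gene is transcribed, often near its start and end, and are favoured where the RNA-like strand is rich in G, and they can be removed by RNase H. A peak in a DRIP-seq list says that hybrid was pulled down from a restriction fragment, not how much RNA the gene made.

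Sequences of 3 starts are shown first because they span the range of the motor genes, from a start with a peak in every untreated library to a gene with none. All are the first 300 bases of the gene on its coding strand, in mm9, with runs of 3 or more G in capitals. Kif5c lies on the plus strand (chr2:49474818-49475117). Kif2a lies on the minus strand (chr13:107811907-107812206). Kif1a also lies on the minus strand (chr1:94998143-94998442).

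Kif5c start: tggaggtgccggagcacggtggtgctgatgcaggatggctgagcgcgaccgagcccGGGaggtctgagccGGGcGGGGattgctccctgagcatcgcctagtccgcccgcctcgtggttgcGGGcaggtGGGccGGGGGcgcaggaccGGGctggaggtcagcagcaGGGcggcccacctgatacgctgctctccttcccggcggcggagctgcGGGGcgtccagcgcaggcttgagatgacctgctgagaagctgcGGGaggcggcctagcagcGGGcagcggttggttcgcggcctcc
Kif2a start: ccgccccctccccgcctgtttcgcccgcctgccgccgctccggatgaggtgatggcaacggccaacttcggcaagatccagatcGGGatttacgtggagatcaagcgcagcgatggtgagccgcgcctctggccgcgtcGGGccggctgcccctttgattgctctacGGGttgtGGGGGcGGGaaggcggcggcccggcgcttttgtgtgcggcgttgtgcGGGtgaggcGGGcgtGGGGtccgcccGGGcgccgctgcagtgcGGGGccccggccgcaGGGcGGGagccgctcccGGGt
Kif1a start: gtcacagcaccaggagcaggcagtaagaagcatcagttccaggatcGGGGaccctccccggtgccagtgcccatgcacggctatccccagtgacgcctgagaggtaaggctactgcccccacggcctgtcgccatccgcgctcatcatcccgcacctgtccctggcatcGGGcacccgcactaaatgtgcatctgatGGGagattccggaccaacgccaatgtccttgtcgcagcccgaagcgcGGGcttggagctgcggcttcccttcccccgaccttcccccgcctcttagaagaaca

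The Kif5c and Kif2a starts, with peaks in 9 of 9 untreated libraries, held 11 and 13 G runs and more G than C, with a skew, (G − C)/(G + C), of 0.18 and 0.10. The Kif1a start, with no peak in any library, held 4 G runs and 12 runs of C, and its skew was −0.17. Such runs are common: 97.8% of all protein-coding genes and 98.3% of the motor genes had at least 1 run of 3 or more G in this window on the coding strand, with a median of 6 and 9 runs. Runs of 3 or more C were present in 96.7% and 100% of them. The difference in G runs between the 3 starts depended on this short window. Over the first kb, Kif5c, Kif2a and Kif1a each held 29 G runs, with skews of 0.09, 0.15 and 0.02. The 3 starts illustrate the range and were picked with their peaks known, so they are no test of sequence.

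Edges of peaks are shown next because they tell how finely a peak can be placed. A stretch of 40 bases of the plus strand of mm9 is given around each edge of 3 peaks that had the same edges in nearly all untreated libraries, with the recognition site of the enzyme in capitals. The Kif5c start peak (chr2:49474608-49475907, 8 of 9 libraries with exactly these edges) ran from an SspI to an XbaI site. The Dync2h1 start peak (chr9:7184379-7186185, 7 libraries) ran from XbaI to SspI. The Kif5a 3′ end peak (chr10:126662182-126664487, 8 libraries) ran from BsrGI to XbaI.

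Kif5c left edge: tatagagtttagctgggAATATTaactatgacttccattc
Kif5c right edge: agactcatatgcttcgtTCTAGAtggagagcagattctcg
Dync2h1 left edge: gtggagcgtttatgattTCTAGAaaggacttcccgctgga
Dync2h1 right edge: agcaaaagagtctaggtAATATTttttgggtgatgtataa
Kif5a left edge: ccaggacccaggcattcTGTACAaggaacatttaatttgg
Kif5a right edge: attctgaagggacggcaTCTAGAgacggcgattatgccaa

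These peaks were whole restriction fragments of 1300, 1807 and 2306 bases. In each untreated library, between 50.4% and 71.4% of the peaks at motor genes had at least 1 edge exactly on a cut of 1 of the 5 enzymes. A peak thus places a hybrid within a fragment rather than at a base. The fragment that holds a motor gene's start had a median length of 1.74 kb (range 0.314 to 4.91 kb).

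Peaks were counted in the gene and 1 kb to each side, and the bases covered by peaks in that window, called covered bases below, were the measure of each library. By this count, 23 of the 59 motor genes had a peak in 9 of 9 untreated libraries, 22 in 1 to 8, and 14 in none. Over all protein-coding genes the shares were 26.2% with a peak in 9 of 9 and 50.1% with a peak in 0 of 9. The motor genes therefore had peaks more often than protein-coding genes at large, 39.0% against 26.2% in all 9 libraries. They were also longer, with a median length of 37.4 kb against 15.4 kb, and a longer window has more room for a peak. The part of length in this difference was not tested.

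**Figure D1:**
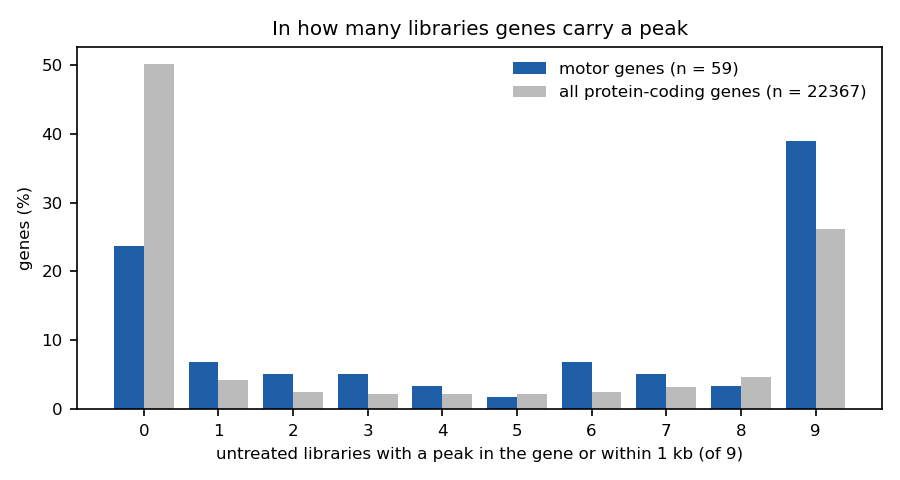
Bars give the percentage of genes (y axis) by the number of untreated libraries, out of 9, with a peak in the gene or within 1 kb (x axis), for the 59 motor genes in blue and all 22367 protein-coding genes in grey. Both sets pile up at the ends, with 23.7% of motor genes and 50.1% of all genes at 0 libraries, and 39.0% and 26.2% at 9.

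Kinesin-1 is the main motor of fast transport down axons. Of its 7 genes, Kif5a, Kif5b, Kif5c, Klc1 and Klc3 had peaks in 9 of 9 libraries, and none of the 7 was without a peak. The shares of all protein-coding genes were 26.2% and 50.1%, and the difference was not tested. Kif5 genes encode the heavy chains that walk and hydrolyse ATP, and Klc genes the light chains that hold cargo. Kif5a (chr10:126662755-126700136, minus strand), the neuronal heavy chain, had 16150, 19267 and 19361 covered bases in the siScramble libraries, 21295, 14404 and 16983 in siDDX1, and 15559, 13451 and 19452 in siEXOSC3. All 9 values lay within 13451 to 21295, the groups overlapped, and the mean was 44.0% of the window. Kif5c (chr2:49474818-49630298, plus strand), another neuronal heavy chain, had 9637, 16790 and 26328 bases in siScramble, 27385, 11138 and 14882 in siDDX1, and 10189, 17536 and 18494 in siEXOSC3. Its highest values came from siScramble replicate 3 and siDDX1 replicate 1, whose lists were among the longest, with 42170 and 40136 peaks against 23882 in the shortest. Whether list length set these values was not tested. Over its 155 kb, Kif5c was covered for 10.8% of the window on average. Kif5b, the heavy chain found in most cells, had 1363 to 6438 covered bases (median 2382).

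Kinesin-2 motors work in cilia and in neurons, and kinesin-3 motors carry vesicles. Kif3b and Kif3c of kinesin-2 had peaks in 9 of 9 libraries, and Kif3a and Kif17 in 8 and 7. In kinesin-3, Kif1b, Kif1c and Kif13b had peaks in 9 of 9, whereas Kif1a and Kif16b had none. Kif1b (chr4:148550428-148681802), whose product carries synaptic vesicle precursors and mitochondria, had 5701, 12653 and 14645 covered bases in siScramble, 17490, 9539 and 11507 in siDDX1, and 9346, 7541 and 14556 in siEXOSC3. Kif1c (chr11:70514050-70545466) had 7319, 9764 and 11513 bases in siScramble, 16193, 4374 and 8000 in siDDX1, and 11122, 13387 and 14993 in siEXOSC3. Both spread over more than 3-fold, with the lowest or highest value in a siDDX1 or siScramble library, and their groups overlapped. Kif3c (chr12:3365132-3406494) ranged from 4150 to 9025 bases. Kif1a, the close relative of Kif1b and a textbook motor of neuronal vesicles, had no peak in 12 of 12 lists over its 86.4 kb.

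The 11 mitotic kinesins, which move chromosomes, slide spindle microtubules or finish cell division, were none of them without a peak, and 4 had peaks in 9 of 9 libraries (Kif11, Kif18b, Kif20a and Kif22). Kif22 (chr7:134171246-134185934), a chromosome-arm motor, had 4884, 7593 and 9215 covered bases in siScramble, 7206, 3531 and 3605 in siDDX1, and 3544, 5193 and 5517 in siEXOSC3. Its region called in 9 of 9 libraries was the 3′ end of a stretch of 17682 bases that also spans Maz and Prrt2, so it cannot be given to Kif22 alone. Kif18b (chr11:102766843-102786438), a plus-end depolymerase, had 6104, 8819 and 7348 bases in siScramble, 4638 in each of the 3 siDDX1 libraries, and 5022, 5985 and 6301 in siEXOSC3. None of the 11 had a peak in an RNase H library, where 13.5% of all protein-coding genes had 1 in at least 1 such library. For the counts in untreated libraries, the shares of all protein-coding genes were 26.2% in 9 of 9 and 50.1% in none. These differences were not tested. In the other kinesin families, Kif2a and Kif24 of kinesin-13 and Kif26a of kinesin-11 had peaks in 9 of 9. Kif26a (chr12:113384446-113419957) was the steadiest of the 10 genes with the most covered bases, with 8378, 10106 and 11335 in siScramble, 11522, 9760 and 9434 in siDDX1, and 10926, 10523 and 10855 in siEXOSC3, or 10315 ± 1005 (mean ± SD, n = 9).

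The other genes with peaks in 9 of 9 libraries were covered for less, and their values follow in the same order of groups. Kif2a, a microtubule depolymerase, had 4149, 6209 and 5548 bases in siScramble, 6861, 5843 and 5068 in siDDX1, and 5002, 4576 and 5848 in siEXOSC3, a narrow range that included the start shown above and an internal fragment (chr13:107764177-107767322) with the same edges in 8 libraries. Klc1, the main neuronal light chain, had 2703, 5394 and 6775, then 12299, 2001 and 4029, then 3874, 3019 and 8212 bases, and spread over 6-fold. Kif20a, which acts in cytokinesis, had 1138, 4370 and 3751, then 2818, 2159 and 2410, then 3236, 1775 and 4277 bases. Its start fragment had the same edges in 9 of 9 libraries and is shared with the start of Brd8. Kif13b ranged from 1050 to 4782 bases (median 2716), Kif24 from 844 to 4628 (median 1905) and Kif3b from 310 to 6449 (median 2155), with groups that overlapped at each.

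Between these and the genes without peaks were 22 motor genes called in some libraries. Kif3a, the partner of Kif3b in kinesin-2, had up to 3670 covered bases and none in siScramble replicate 1. Kif7, a kinesin-4 protein of the Hedgehog pathway, had up to 2161 bases and none in siDDX1 replicate 2. Kif2c, the centromere depolymerase, and Kif23, of the central spindle, had up to 3357 and 2846 bases, and both lacked a peak in siScramble replicate 1 and siDDX1 replicate 2, the 2 shortest untreated lists (23882 and 24167 peaks). The part of list length in these losses was not tested. Of the others, Kif18a had peaks in 5 libraries, Kif15 and Kif9 in 4, Kif4, Kif13a and Dynlt1b in 3, Kif14, Kif20b and Klc4 in 2, and Dync2li1, Dynlt3 and Kif21a in 1. The light chain gene Klc2 had peaks in 6, with at most 862 bases.

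Cytoplasmic dynein 1, the main motor toward microtubule minus ends, had peaks in 9 of 9 libraries at its heavy chain gene Dync1h1 and at the light intermediate chain gene Dync1li2. Dync1li2 (chr8:106941574-106966947) had 12567, 15843 and 17277 covered bases in siScramble, 15909, 15151 and 15896 in siDDX1, and 11676, 10383 and 14576 in siEXOSC3. Every library thus had at least 10383 bases there, 52.5% of the window on average, and the siEXOSC3 values lay below the siDDX1 values but overlapped siScramble (exact permutation p across the groups 0.0893, adjusted p = 1). Dync1h1 (chr12:111839662-111905155) had 9663, 18251 and 15883 bases in siScramble, 22441, 8380 and 9830 in siDDX1, and 11141, 11763 and 19213 in siEXOSC3. Its extremes were both siDDX1 libraries. The intermediate chain genes, whose products bind dynactin, had little: Dync1i2 had peaks in 6 libraries with at most 932 bases, and Dync1i1 in 1. Dync1li1, the relative of Dync1li2, had peaks in 6 libraries and at most 1738 bases.

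Dynein 2 moves cargo back along cilia. Its heavy chain gene Dync2h1 spans 256 kb and had 1068 covered bases in 7 of 9 libraries, 761 in siDDX1 replicate 3 and 1391 in siEXOSC3 replicate 2. The recurring value is a property of the window: it is the length from the XbaI cut shown above to the window's end. The same fragment also holds the start of Dcun1d5, so the peak cannot be given to Dync2h1 alone. Of the light chain genes, Dynll1, Dynll2 and Dynlrb1 had peaks in 9 of 9. Dynll1, the small hub protein LC8, had 2955 to 5051 bases over a gene of 3.89 kb, or 68.0% of its window, part of it over the neighbouring gene Coq5. Dynlrb2 and 4 of the 5 Dynlt1 copies had no peak, and reads from such copies cannot be given to 1 of them.

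The 14 motor genes with no peak in any untreated library were Dynlrb2, Dynlt1a, Dynlt1c, Dynlt1e, Dynlt1f, Kif12, Kif16b, Kif19a, Kif1a, Kif26b, Kif27, Kif2b, Kif4-ps and Kif6. The lists hold only peaks above a q-value limit, so no peak means no call and not an absence of hybrid. Several of them are long, such as Kif26b (404 kb), Kif6 (295 kb) and Kif16b (284 kb). Of 28 motor partners found in the annotation (dynactin, dynein regulators, adaptors and other motors), 17 had peaks in 9 of 9 and 3 (Hook1, Kifc2 and Nde1) in none. Among neuronal markers, Tubb3 and Uchl1 had peaks in 9 of 9, and Stmn2, Nefl and Nefm had none. Of 8 markers of other tissues, 0 had peaks in 9 of 9 and 6 had none. Beside these counts, 26.2% of all protein-coding genes had peaks in 9 of 9 and 50.1% had none.

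**Figure D2:**
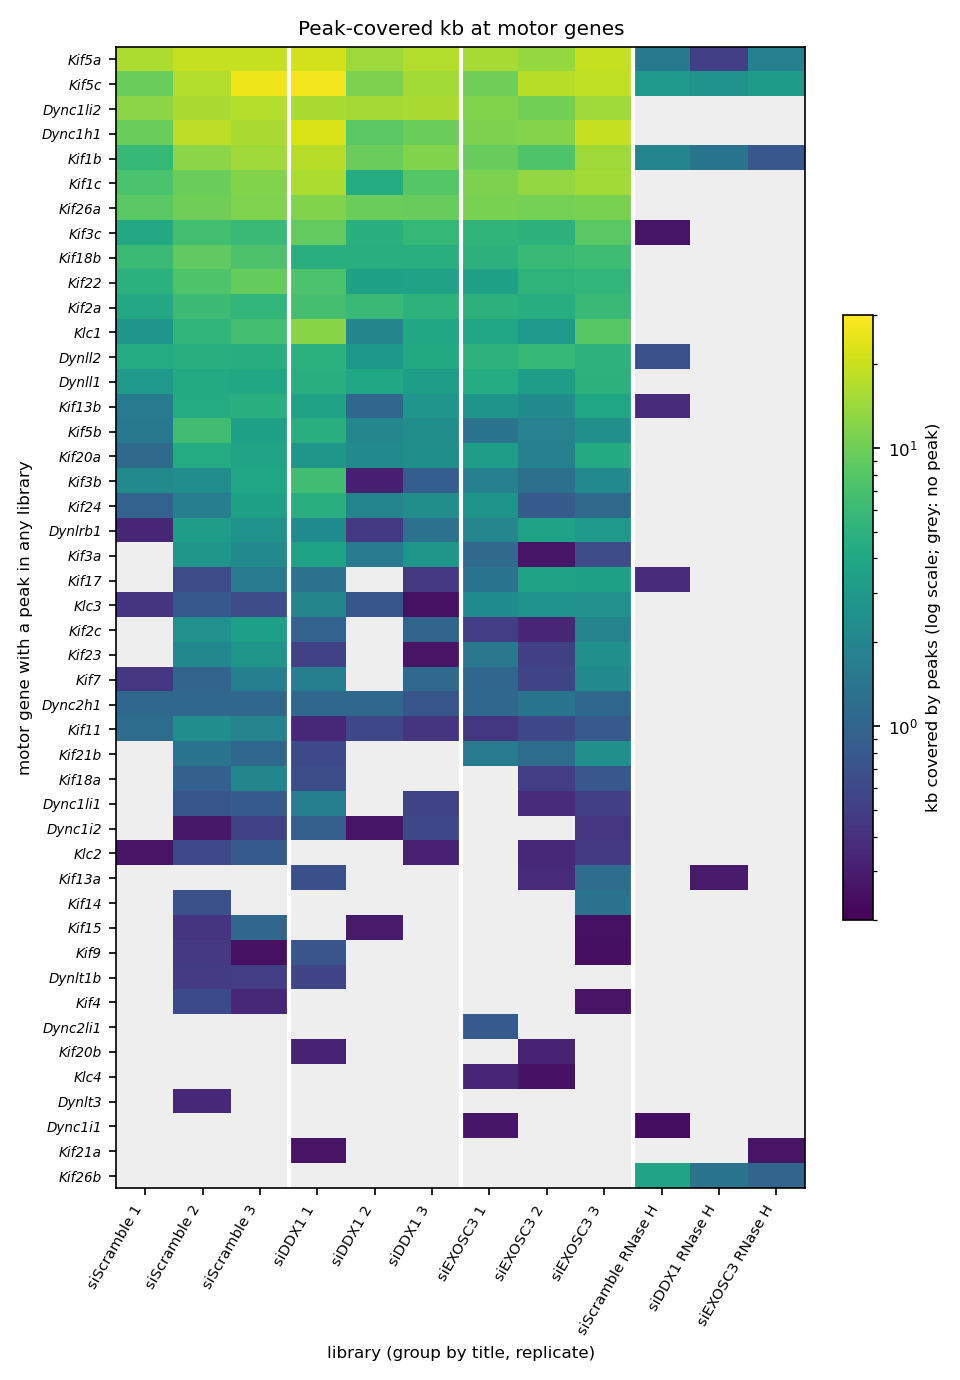
Colour gives the kb covered by peaks on a log scale for each of the 46 motor genes with a peak in any list (rows, by mean over the untreated libraries) in each of the 12 libraries (columns, by title), and grey means no peak. Rows from Kif5a to Dynlrb1 are coloured in every untreated library, the 3 RNase H columns are grey for most genes, and Kif26b at the bottom is coloured in the RNase H columns alone.

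Merged over the untreated libraries, the peaks at motor genes formed 328 regions in 45 genes, of 69495 in the genome. Of these, 40 were called in 9 of 9 libraries (12.2%, against 10.7% of all regions) and 129 in 1 of 9 (39.3%, against 45.3%). By position, 31 regions lay within 1 kb of the gene's start, 25 within 1 kb of its end and 272 between, of which 108 touched an exon and the rest were intronic. The regions in 9 of 9 were 9 at starts, 13 at ends and 18 internal, in 22 genes, and their median width of 3398 bases compared with 566 bases over all 328. Regions of 17 motor genes overlapped another coding gene or lay within 1 kb of its start, so part of their covered bases may belong to that gene. These were read from the annotation without strand, since DRIP-seq peaks have none.

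At the starts alone, 7 of the 59 motor genes had a peak within 1 kb of the start in 9 of 9 libraries, with 11.1% of all genes as background: Dync1li2, Dync2h1, Dynll2, Kif20a, Kif2a, Kif5b and Kif5c. With the start of any annotated transcript instead of the gene's outermost start, 11 did. The 11.1% is not the background of that count, whose share over all genes is not given here. In 33 of 59 motor genes no untreated library had a peak there, against 65.9% of all genes. At Kif5b the fragment with the start itself (0.77 kb, HindIII to XbaI) had no peak in any library, and in 9 of 9 the peaks lay on a fragment further into the gene. The first kb of the motor genes had a median GC content of 56.2%, a median skew of 0.06 and a median of 21 G runs, against 53.4%, 0.04 and 18 over all genes. The 7 starts with peaks throughout had medians of 57.4%, 0.09 and 29, and the 33 without had 53.4%, 0.06 and 20. The 19 starts with peaks in 1 to 8 libraries had medians of 59.0%, 0.05 and 21. Among motor genes, G runs thus rose with the number of libraries, whereas GC content and skew did not line up in 1 order. Over all genes, each median rose from starts without a peak, to peaks in 1 to 8 libraries, to peaks in 9 of 9. GC content was 50.2%, 57.8% and 60.3%, skew 0.03, 0.05 and 0.06, and G runs 15, 22 and 25. These differences were not tested. The 7 starts also differed among themselves: that of Dync2h1 had 42.3% GC and 14 G runs, that of Kif20a 49.8% GC and 13 G runs, and that of Kif5b a skew of −0.02.

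The highest enrichment at each of the 23 genes with peaks throughout was read from the fold over local background in the lists. Kif22, Kif18b and Dync1li2 led, with median folds of 32.4, 25.9 and 27.1 over the 9 libraries. Such a peak was stronger than 99.6%, 99.4% and 99.1% of all peaks of its library (medians over libraries). The fold was the highest of any peak touching the window, so at Kif22 it may belong to the stretch that also spans Maz and Prrt2. Kif5a followed with a median of 19.9, and Kif11 was weakest with 5.24, near the middle of its libraries' peaks. Kif5c had many covered bases but moderate folds (median 9.49). Covered bases and fold thus ordered the genes differently.

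Covered bases at motor genes were lower in the RNase H libraries than in the untreated ones for most genes with peaks throughout. Of 38 motor genes with a peak in at least 3 of 9 untreated libraries, 18 had fewer covered bases in the RNase H libraries at an adjusted p of 0.0323 (exact permutation test over 64 assignments, two-sided, Benjamini-Hochberg over 9666 genes), and 0 had more. The background was 47.9% of the 9666 genes tested. The share of motor genes, 18 of 38, was at that background. All 18 were among the 23 with peaks in 9 of 9 libraries, and over all genes all 4626 that were lower came from the 5859 with peaks in 9 of 9. The test fixes this outcome, because only the smallest p it allows, 0.0156, passed. Where an untreated library has no peak, swapping its label with the RNase H library of its group gives a difference at least as large. Such genes could not pass as lower, so the shares called largely follow the shares with peaks in 9 of 9. The filter on untreated libraries also favours the lower direction. The RNase H lists were also far shorter, with 3811 to 8034 peaks against 23882 to 42571, and how many reads lay behind each list is unknown, so fewer hybrids and fewer reads cannot be told apart from lists alone.

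**Figure D3:**
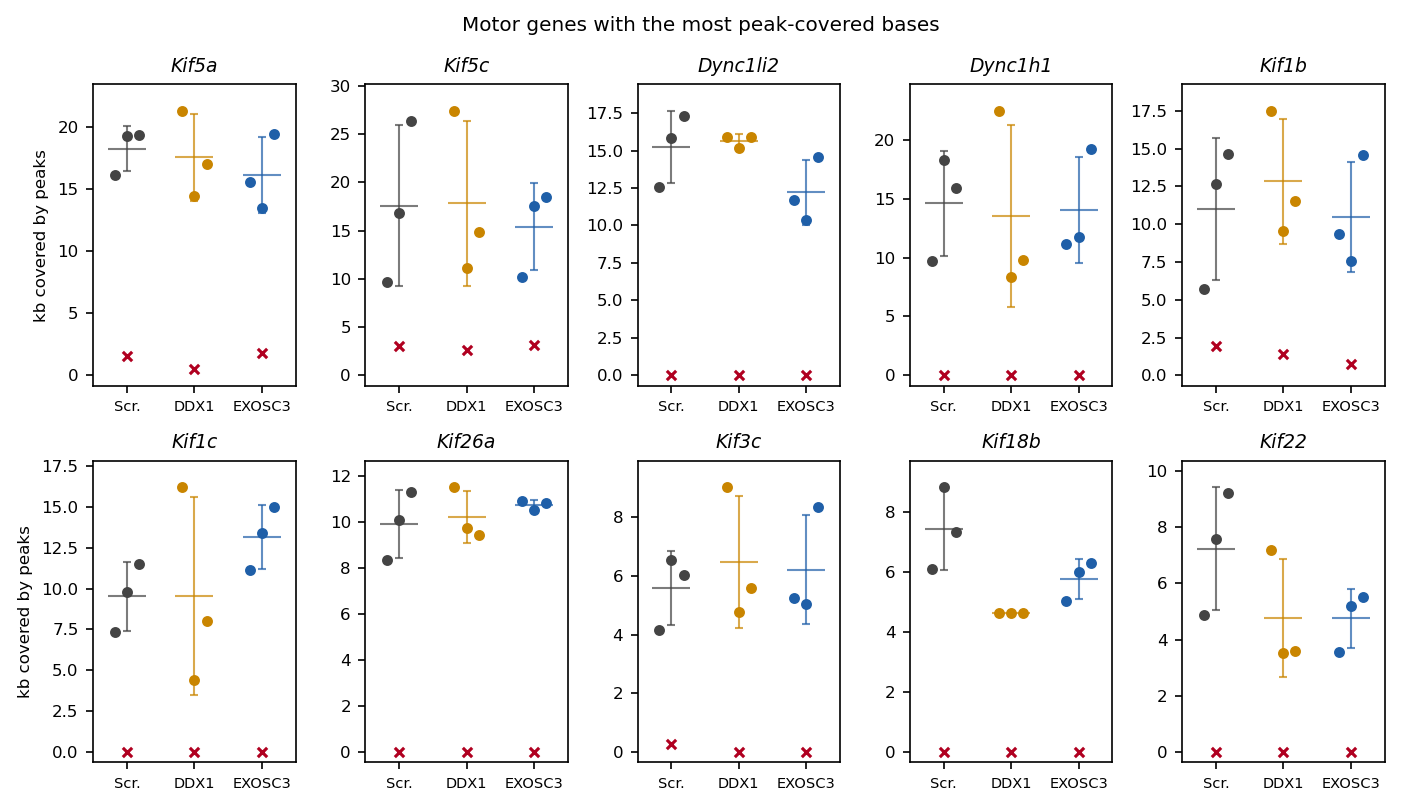
Panels give the kb covered by peaks (y axis) at the 10 motor genes with the largest mean, with the 3 untreated libraries of each group by title as dots, their mean and SD as lines, and the 1 RNase H library of the group as a red cross. Every cross lies below all 9 dots of its gene, with crosses above 0 at Kif5a, Kif5c and Kif1b in all groups and at Kif3c in siScramble, and no group stands clear of both others except siDDX1 at Kif18b.

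Among the 10 genes with the most covered bases, Dync1h1, Dync1li2, Kif1c, Kif26a, Kif18b and Kif22 had no peak in any RNase H library. Kif5a kept 1519, 505 and 1788 bases in the RNase H libraries of siScramble, siDDX1 and siEXOSC3, so that its mean fell by 16054 bases. Kif1b kept 1922, 1396 and 776 bases, and its mean fell by 10077 bases. Kif5c kept 2989, 2610 and 3156, all lower than each of its 9 untreated values. With an exact permutation p of 0.0312 (adjusted p = 0.0563), Kif5c did not pass, because the test is two-sided and its untreated libraries spread so widely that another assignment of the label gave a difference as large. The other genes with peaks in 9 of 9 that did not pass were Kif24, Kif3b, Kif5b and Klc1, all with no peak after RNase H.

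Peaks that were present after RNase H were few and mostly elsewhere. Of the motor genes, 11 of 59 had a peak in at least 1 RNase H library, against 13.5% of all genes: Kif5a, Kif5c, Kif1b and Kif26b in 3 of 3, and Dync1i1, Dynll2, Kif13a, Kif13b, Kif17, Kif21a and Kif3c in 1. Together they held 46 peaks, of which 27 overlapped no untreated peak. In Kif5a, a peak 3.3 to 3.5 kb into the gene (chr10:126696549-126697053 in siDDX1 and siEXOSC3) was called in 3 of 3 RNase H libraries and 0 of 9 untreated ones. In Kif5c, peaks around 108 kb into the gene behaved likewise, whereas peaks at 64 kb lay on a region called in 9 of 9 untreated libraries.

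Kif26b, the other kinesin-11 gene, went the other way. It had 0 covered bases in 9 of 9 untreated libraries and 3759, 1374 and 1027 in the RNase H libraries of siScramble, siDDX1 and siEXOSC3. Its 11 RNase H peaks lay 20.7 to 208 kb into the gene, all intronic, and those near 49.8 and 208 kb were called in 3 of 3. These values are a description: the gene is listed at all only because of the RNase H libraries. Dync1i1 and Kif21a, each with a peak in 1 untreated and 1 RNase H library, also had slightly higher means after RNase H, from single peaks of 243 and 260 bases.

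**Figure D4:**
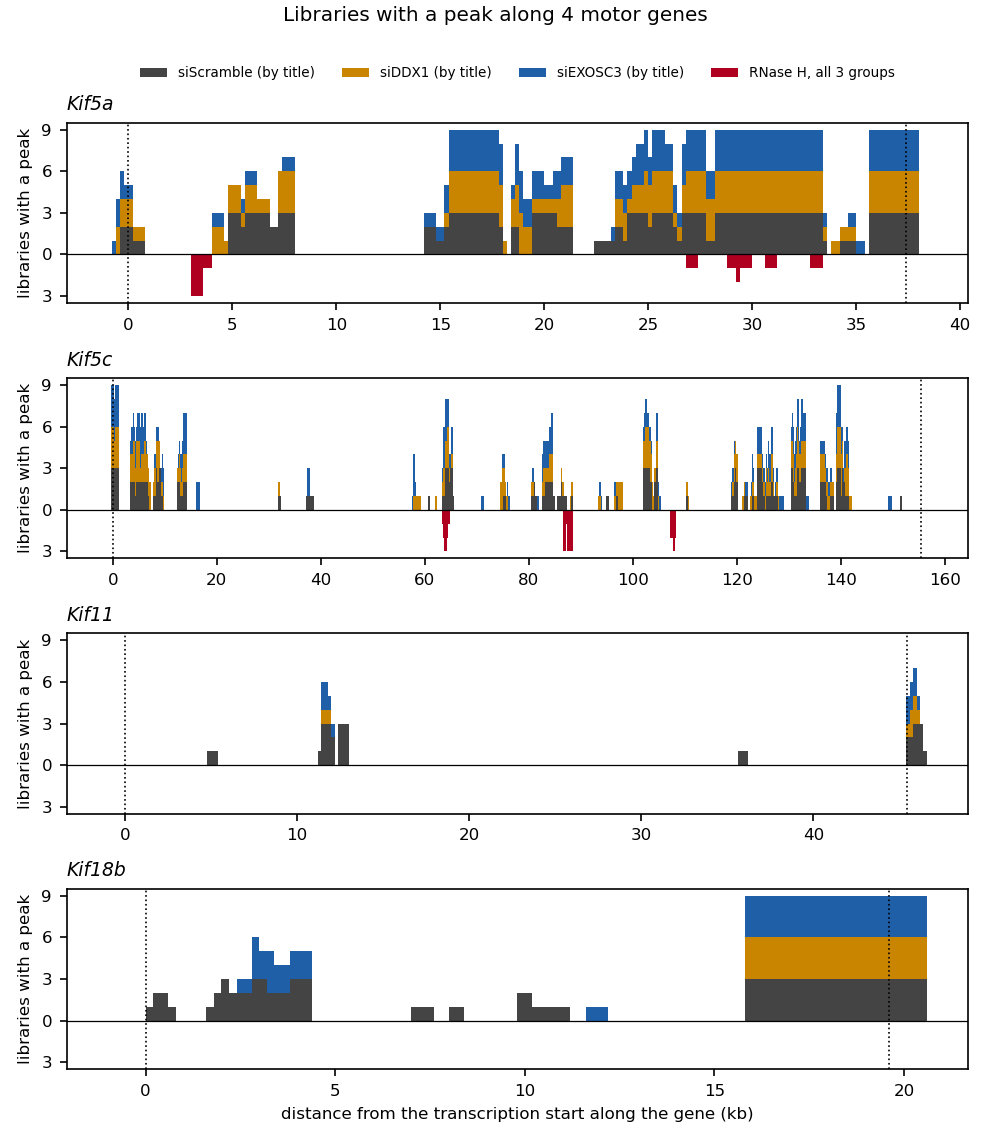
For Kif5a, Kif5c, Kif11 and Kif18b, the number of libraries with a peak (y axis) is drawn in 200-base steps against the distance from the transcription start in kb (x axis), stacked by group upward for the 9 untreated libraries and downward in red for the 3 RNase H libraries, with dotted lines at the gene's start and end. The RNase H peak of Kif5a near 3.3 kb stands where no untreated library has one, Kif11 has a step near 12.6 kb in siScramble alone, and siDDX1 is absent from the Kif18b stretch near 3 kb.

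Across the 3 groups of untreated libraries, no motor gene passed the test of covered bases. In the exact permutation test of the F statistic (280 divisions, Benjamini-Hochberg over 9666 genes) 0 of 38 motor genes had an adjusted p below 0.05, against 0% of all genes, and every adjusted p was 1. At an unadjusted p below 0.05 there were 3 motor genes (Kif11, Kif18b and Klc3) of 38, against 3.22% of all genes. The smallest p that 9 libraries allow is 0.00357, and 691 genes at that value would have been needed for an adjusted p below 0.05, where 13 were found, so the test had little room. With limma on log2(covered bases + 100), 0 motor genes were called in each of the 3 pairs, against 0.0621%, 0.321% and 0.279% of the 9666 genes in siDDX1 minus siScramble, siEXOSC3 minus siScramble and siEXOSC3 minus siDDX1. At an unadjusted p below 0.05 there were 2 of 38 in each, against 2.79%, 5.00% and 5.05%. The median log2 difference over the 38 genes was −0.20 for siDDX1 minus siScramble, −0.14 for siEXOSC3 minus siScramble and 0.19 for siEXOSC3 minus siDDX1, beside −0.14, 0 and 0.16 over all genes. The first 2 of these pairs share the siScramble libraries.

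Kif11, the motor that pushes spindle poles apart, was higher in every siScramble library than in the others. Its covered bases were 1174, 2352 and 1864 in siScramble, 347, 588 and 434 in siDDX1, and 454, 592 and 803 in siEXOSC3. Means were 1797 ± 592, 456 ± 122 and 616 ± 176 (SD, n = 3). The exact permutation p was 0.00714 and the adjusted p was 1. Over all genes, 0.724% had siScramble above both other groups in every library, and of the motor genes 1 of 38. The log2 difference was −1.74 ± 0.33 (SE) for siDDX1 minus siScramble, with a limma adjusted p of 0.480, and −1.38 ± 0.33 for siEXOSC3 minus siScramble, with a limma adjusted p of 0.429. Part of the covered bases lay past the gene's 3′ end, in the 1 kb added to the window.

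Kif18b was lowest in siDDX1, where all 3 libraries had 4638 bases. That value again is fixed by a cut and the window: the 3′ end region, from a BsrGI site to the window's edge, was called whole in each. In siScramble and siEXOSC3, further peaks inside the gene came on top (means 7424 ± 1359 and 5769 ± 666, SD, n = 3). The exact permutation p was 0.00714 and the adjusted p was 1, and 0.538% of all genes had siDDX1 below both other groups in every library, with 1 of 38 motor genes.

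Klc3, a kinesin light chain, had 429, 790 and 632 bases in siScramble, 1988, 768 and 251 in siDDX1, and 2301, 2595 and 2542 in siEXOSC3 (exact permutation p = 0.0286, adjusted p = 1). Dynll2, the second LC8 gene, had 4400, 4607 and 4499 bases in siScramble, 4935, 2902 and 4208 in siDDX1, and 5137, 5749 and 5077 in siEXOSC3 (exact permutation p = 0.0857, adjusted p = 1). In both, each siEXOSC3 library exceeded all 6 others, which 2.34% of all genes did and 2 of 38 motor genes. The Klc3 peaks formed 1 region at the 3′ end that overlaps Ercc2. With the window widened to 5 kb the p of Klc3 was 0.257.

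The next genes in the order of p, the ciliary and dendritic kinesin-2 gene Kif17 and the kinesin-4 gene Kif21b, rested on libraries without a peak. Kif21b had 0, 1366 and 1094 bases in siScramble, 606, 0 and 0 in siDDX1, and 1610, 1169 and 2479 in siEXOSC3 (exact permutation p = 0.0679, adjusted p = 1). Kif17 had 0, 641 and 1581 bases in siScramble, 1332, 0 and 456 in siDDX1, and 1384, 3605 and 3501 in siEXOSC3 (exact permutation p = 0.0821, adjusted p = 1). The groups overlapped in both.

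**Figure D5:**
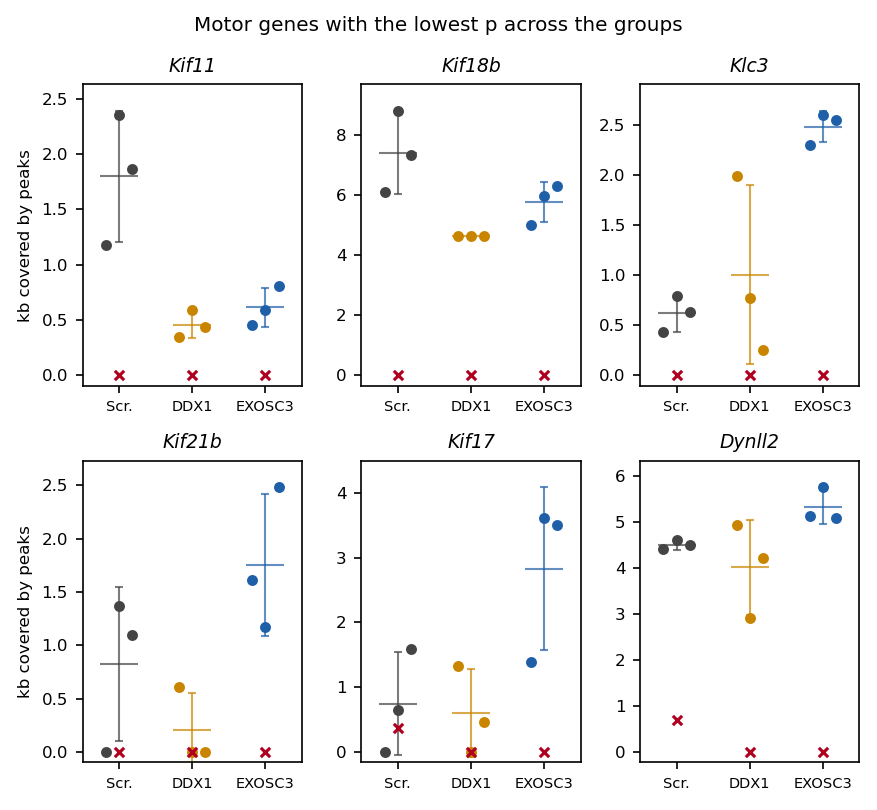
Panels give the kb covered by peaks (y axis) at the 6 motor genes with the lowest p across the groups, with 3 untreated libraries per group by title as dots, their mean and SD as lines and the RNase H library as a red cross. Kif11 is highest in siScramble, Kif18b has 4638 bases in each siDDX1 library, and Klc3 and Dynll2 are highest in siEXOSC3, with no overlap in those cases.

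Read as calls rather than bases, no motor gene had a peak in 3 of 3 libraries of 1 group and 0 of 3 of another, where 0.970% of all genes did in any of the 6 directions. Single regions did: 14 of the 328 regions (4.27%), against 2.06% of all 69495 regions, in Dync1h1, Dync1i2, Dync1li2, Kif11, Kif17, Kif18b, Kif22, Kif23, Kif26a, Kif3c, Kif5a and Kif5c. The difference between the shares was not tested, and 3 libraries against 3 cannot give a single region a two-sided exact p below 0.1. Apart from the Kif11 and Kif18b regions described next, each was called in 1 or 2 libraries of the third group.

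Only 1 region at a motor gene was called in 3 of 3 siScramble libraries and 0 of 6 others, a pattern of 0.109% of all regions. It is an intronic stretch of 393 bases in Kif11 (chr19:37463334-37463726), ending at an XbaI cut and 12.6 kb into the gene. Likewise 1 region was called in 0 of 3 siDDX1 libraries and 6 of 6 others, a pattern of 0.0360% of all regions. It is an intronic stretch of 2531 bases in Kif18b (chr11:102782150-102784680), 3.02 kb into the gene. The middle 300 bases of both are shown on the coding strand (chr19:37463380-37463679 plus and chr11:102783265-102783564 minus, mm9), again with runs of 3 or more G in capitals, as the places where the groups parted most cleanly.

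Kif11 intronic region: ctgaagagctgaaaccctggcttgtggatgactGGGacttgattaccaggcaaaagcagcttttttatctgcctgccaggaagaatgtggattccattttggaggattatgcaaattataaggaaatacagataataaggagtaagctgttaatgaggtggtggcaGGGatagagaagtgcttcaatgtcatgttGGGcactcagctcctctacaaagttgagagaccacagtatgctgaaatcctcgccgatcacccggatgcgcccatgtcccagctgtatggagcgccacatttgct
Kif18b intronic region: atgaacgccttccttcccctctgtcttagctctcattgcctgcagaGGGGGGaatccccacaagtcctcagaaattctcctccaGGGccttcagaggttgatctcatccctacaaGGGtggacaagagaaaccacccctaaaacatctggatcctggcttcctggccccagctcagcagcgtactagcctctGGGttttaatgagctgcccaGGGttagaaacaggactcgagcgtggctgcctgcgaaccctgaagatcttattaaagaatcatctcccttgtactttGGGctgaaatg

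The Kif11 stretch held 3 G runs and 47.0% GC, and the Kif18b stretch 6 G runs and 52.3% GC, both below the GC content of the Kif5c and Kif2a starts (72.3% and 73.3%). No RNase H peak overlapped either region. Overlaps were looked up with protein-coding genes only, and copies of these sequences elsewhere in the genome were not searched for. Whether the reads of either region came from that gene alone therefore cannot be told.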

How the data were processed

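The authors aligned DRIP-seq reads to mm9 with Bowtie2 2.4.4 and called peaks for each library separately with MACS2 2.2.6 against an input library, which was not analysed here. The deposited lists hold, per the file headers of the narrowPeak format, a display score, the fold enrichment as a linear ratio, the −log10 p-value, the −log10 q-value, and the summit offset in bases (another number). They hold no read counts, so the authors' DESeq2 test of counts in merged peaks was not repeated and the depth of each library is unknown. Replicates were separate plates of 1 cell line per the methods, so p-values measure the spread between these cultures.

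Groups came from the sample titles. Peaks on chromosomes 1 to 19, X and Y were intersected with gene bounds extended by 1 kb, and covered bases were summed per gene (Python 3.11.15, numpy 2.4.6). Genes with a peak in at least 3 of 9 untreated libraries were tested: exact permutation of F over 280 divisions, exact permutation of the RNase H label within groups (64 assignments, smallest p 0.0156), and limma 3.58.1 in R 4.3.3 on log2(covered bases + 100), each with Benjamini-Hochberg adjustment over 9666 genes. These steps were tested on simulated data. Start and end regions come within 1 kb of the gene's first or last base, and cuts were found in mm9 sequence by the enzymes' sites.

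The members were set by symbol alone, but this family, the gene lists and the tests were chosen with earlier results of these data known. Named were the 10 genes with most covered bases, those with an RNase H peak, any all-or-none genes, the 6 lowest p across groups, and by name the genes with peaks in all 9 or in none; other genes were named for their family. Same-numbered libraries of different groups did not deviate together (correlations −0.17 to 0.20), so no pairing was used. Alternatives were a −log10 q of at least 5, no extension or 5 kb, a minimum overlap of the peak with the window, other filters, equal list lengths (23882 peaks), a pseudocount of 1000, any transcript start, a replicate block and leaving out each library. The count over the neuronal marker list is not reported here.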

Additional observations from a re-analysis of the deposited data

Results flagged for a closer look

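Kif26b had 3759 bases under peaks in the siScramble RNase H library, and also peaks in the RNase H libraries of the other 2 groups, although none of the 9 untreated libraries had a peak there. It stands out because RNase H libraries serve as the negative control and outside them the gene would not have appeared at all.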

How the results depend on the processing

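The lists hold peaks and no reads, so a change of signal within a peak cannot be seen, and a gene near the calling limit moves in and out of a list. Counts of genes called across the 3 groups or between a pair stayed at 0 in every alternative run, from a −log10 q of at least 5 and other windows to equal list lengths, the replicate block and leaving out each library (lowest 0, highest 0). The exact test across the groups had little room to give another count, and less with the replicate block. Genes lower after RNase H numbered 14 to 19 under other thresholds, windows and filters, and 16 to 21 with 1 library left out. Genes with a peak in 9 of 9 numbered 20 to 25.

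All-or-none calls moved. With a −log10 q of at least 5 there was 1 gene in siDDX1 and not in siScramble, 1 in siEXOSC3 and not in siScramble (Klc3 in both), and 1 in siEXOSC3 and not in siDDX1 (Kif21b). With equal list lengths there were 2 in siEXOSC3 and not in siDDX1 (Kif21b and Kif23). Leaving out 1 library gave 0 to 1 gene in each direction except siDDX1 against siScramble, where it gave 0: Kif4 or Dynlt1b without siScramble replicate 1, Klc2 without siDDX1 replicate 3, Kif13a without siEXOSC3 replicate 1, Klc4 or Dync1i2 without siEXOSC3 replicate 3, and Kif21b without siDDX1 replicate 1. The share of all genes with all-or-none calls is given for the main setting alone (0.970%). Whether the counts under these alternatives exceed their background therefore cannot be judged. With any annotated transcript start, 11 motor genes had a start peak in 9 of 9 rather than 7, with no share of all genes beside it. The causes were not tested.

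The p across the groups ran over all alternatives from 0.00243 to 0.05 for Kif11, from 0.00357 to 0.0786 for Kif18b and from 0.00714 to 0.257 for Klc3, with the lowest adjusted p at 0.373, 0.480 and 0.443. Dynll2 ran from 0.00357, without siDDX1 replicate 1, to 0.432. Replicate numbers did not pair the samples. With the replicate block (36 labellings, smallest p 0.0278) 0 genes were called, and the p was 0.0278 for Kif11 and Kif18b and 0.111 for Klc3.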
